A study of Mus musculus with 11 samples.

Results

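Receptors that bind the constant (Fc) part of immunoglobulin G were followed in sorted mouse bone marrow cells: the activating receptors Fcgr1, Fcgr3 and Fcgr4, their shared signalling chain Fcer1g, the inhibitory receptor Fcgr2b and the recycling receptor Fcgrt. All probes that the platform annotation assigns to these 6 genes were taken, 11 probes of 34885 that carry 1 gene symbol. Fcgr2b had 5 probes, Fcgrt had 2, and each of the other 4 genes had 1. The arrays represented 19057 gene symbols, of which 11381 were detected well enough to be tested, all 6 receptor genes among them. Fcgr1 and Fcgr4 were detected only on the 6 arrays of B220- cells. Fcgr3 was detected on these and on 1 HSC array, where the filter asked for at least 2 arrays. The activating receptors thus passed the filter through the groups in which they were bright. The members were also chosen with earlier results of these data known, so counts of called members are descriptions and not tests.

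The cells came from the endosteal region of the marrow, next to the bone surface, of C57BL/6 mice, and were separated by flow cytometry. Haemopoietic stem cells (HSC) were sorted as LSK CD150+ CD48- (n = 2 arrays). The other 3 groups were positive for FITC-AGE, a fluorescein-tagged reagent, and the labels call all of them scavenger endothelial cells. They were CD31+ B220+, CD31+ B220- or CD31- B220-, with 3 arrays each. The source names of the last group begin with HSC, against their titles, and the titles were followed. No treatment or age is given. Some RNA samples were pooled and the labels do not say that replicates came from separate animals, so p-values measure the spread between these arrays, which may be technical.

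Fc gamma receptors let cells respond to antigen coated with antibody. Fcgr1 (high affinity), Fcgr3 and Fcgr4 have no signalling motif of their own in mice and pair with Fcer1g, the Fc receptor gamma chain, whose activation motif recruits the kinase Syk. Fcgr2b is a single chain with an inhibitory motif that recruits the phosphatase Inpp5d (SHIP1). It restrains B cells and myeloid cells, and in liver sinusoidal endothelium it clears small immune complexes. Fcgrt encodes FcRn, which pairs with beta-2 microglobulin (B2m) and returns immunoglobulin G and albumin from endosomes to the cell surface.

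The 75th percentile of raw probe intensity was 376.8 to 450.5 on the HSC arrays and 145.9 to 211.6 on the others, so that cell type and array brightness cannot be told apart in comparisons with HSC. The 3 such comparisons also share the same 2 HSC arrays. Between 15063 and 17755 of 45281 probes were detected per array. Arrays of 1 group correlated across genes with Pearson r of 0.97 to 0.989, and arrays of different groups with 0.786 to 0.924, with genes not being independent replicates. In sorted bulk samples, fewer cells of a type and less RNA per cell cannot be told apart.

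Fcgr2b, Fcgr4 and Fcgr3 lie on mouse chromosome 1 with 0 protein-coding genes between neighbours, and 7 protein-coding genes separate Fcgr3 from Fcer1g. Fcgr1 is on chromosome 3 and Fcgrt on chromosome 7. The promoters of the 3 activating receptors are shown because these genes moved together, and that of Fcgr2b because it is their neighbour with another pattern. Each runs from 250 bases before to 50 after the start site annotated by RefSeq (GRCm38.p6), 5′ to 3′ on the strand of the gene. Capitals mark TTCCTC, the reverse complement of GAGGAA (a core bound by PU.1, a myeloid and B lineage transcription factor).
Fcgr1 promoter, chr3:96293920-96294219, minus strand: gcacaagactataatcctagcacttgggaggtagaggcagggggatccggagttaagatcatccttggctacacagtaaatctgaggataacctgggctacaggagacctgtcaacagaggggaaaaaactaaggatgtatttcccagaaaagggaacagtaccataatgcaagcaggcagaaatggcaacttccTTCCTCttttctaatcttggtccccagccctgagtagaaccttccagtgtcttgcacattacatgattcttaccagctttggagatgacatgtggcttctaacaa
Fcgr3 promoter, chr1:171059354-171059653, minus strand: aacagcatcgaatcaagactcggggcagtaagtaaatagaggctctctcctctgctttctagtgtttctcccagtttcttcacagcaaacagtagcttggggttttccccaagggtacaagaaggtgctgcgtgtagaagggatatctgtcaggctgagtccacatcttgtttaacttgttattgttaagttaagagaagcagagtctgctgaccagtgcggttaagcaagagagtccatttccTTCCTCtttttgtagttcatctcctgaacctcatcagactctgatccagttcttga
Fcgr4 promoter, chr1:171018676-171018975, plus strand: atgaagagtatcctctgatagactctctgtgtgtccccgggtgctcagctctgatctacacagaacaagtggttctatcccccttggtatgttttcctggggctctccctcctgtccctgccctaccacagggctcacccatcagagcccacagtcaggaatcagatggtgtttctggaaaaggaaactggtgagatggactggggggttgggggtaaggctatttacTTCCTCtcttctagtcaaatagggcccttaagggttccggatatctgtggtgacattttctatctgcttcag
Fcgr2b promoter, chr1:170976022-170976321, minus strand: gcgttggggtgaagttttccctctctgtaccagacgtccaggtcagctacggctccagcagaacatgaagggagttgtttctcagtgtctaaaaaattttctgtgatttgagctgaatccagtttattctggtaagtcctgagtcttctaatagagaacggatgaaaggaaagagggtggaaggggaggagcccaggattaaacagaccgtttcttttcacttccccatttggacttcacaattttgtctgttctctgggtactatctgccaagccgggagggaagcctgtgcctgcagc

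GAGGAA, searched on both strands, occurred once in each of the promoters of Fcgr1 (position -55 from the start site), Fcgr3 (-6, or -15 from a second annotated start) and Fcgr4 (-22). It did not occur in the windows of Fcgr2b, Fcer1g or Fcgrt. Of 32817 RefSeq promoters of this length, 28.3% hold it. A match describes letters and not a bound site.

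The activating receptors were bright in both B220- fractions and at or near background in HSC and CD31+ B220+ cells. Values are normalized log2 signals, and a probe counts as detected at a detection p under 0.05. Fcgr3 (probe ILMN_2687403), the low-affinity activating receptor of macrophages, neutrophils, mast cells and NK cells, gave 10.24, 10.56 and 9.92 in CD31+ B220- cells and 9.24, 9.41 and 10.39 in CD31- B220- cells. In HSC it gave 5.14 and 5.33, the second of these detected, and in CD31+ B220+ cells 4.91, 4.95 and 4.61, none detected. The B220- arrays thus stood apart from the other 5 without overlap, while the 2 B220- groups overlapped each other.

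Fcgr4 (ILMN_2631161), which in mice binds IgG2a and IgG2b on monocytes, macrophages and neutrophils, had the same shape. It gave 10.26, 9.17 and 10.20 in CD31+ B220- cells and 7.97, 9.18 and 9.73 in CD31- B220- cells. In HSC (4.92 and 5.13) and CD31+ B220+ cells (4.63, 4.45 and 4.49) no array detected it. Its spread within CD31- B220- cells, SD 0.90, was the widest of the 6 genes in that group.

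Fcgr1 (ILMN_1229523), the high-affinity receptor of monocytes and macrophages, was the only member with its highest mean in CD31- B220- cells, where the arrays gave 7.13, 8.11 and 8.10. In CD31+ B220- cells they gave 6.73, 6.98 and 6.74, all below the lowest CD31- B220- array. HSC (5.05 and 4.79) and CD31+ B220+ cells (4.79, 5.09 and 4.56) overlapped and were not detected.

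Fcer1g (ILMN_2748875), which also serves the IgE receptor and several lectins, was detected on all 11 arrays and followed the activating receptors, but with a level in HSC too. The arrays gave 13.67, 13.65 and 13.57 in CD31+ B220- cells and 12.53, 12.92 and 13.46 in CD31- B220- cells. HSC gave 10.33 and 10.49, and CD31+ B220+ cells 8.21, 8.02 and 8.18. No 2 groups overlapped, and the order fell from CD31+ B220- through CD31- B220- and HSC to CD31+ B220+.

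Fcgr2b, on its brightest probe ILMN_1228657, was bright in all 3 AGE-positive fractions. It gave 10.12, 10.11 and 10.16 in CD31+ B220+ cells, 10.75, 10.60 and 10.59 in CD31+ B220- cells, and 9.81, 10.07 and 10.45 in CD31- B220- cells. HSC gave 5.60 and 5.47, detected but dim. All 9 fraction arrays thus lay more than 4 log2 units above both HSC arrays, and the CD31+ B220+ values lay inside the range of CD31- B220- cells.

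Fcgrt (brighter probe, ILMN_1221819) had its low point in CD31+ B220+ cells. HSC gave 10.81 and 11.11, CD31+ B220- cells 10.45, 10.79 and 10.99, and CD31- B220- cells 9.69, 10.09 and 10.58. CD31+ B220+ cells gave 8.13, 8.39 and 8.42, below every other array. HSC overlapped with CD31+ B220- cells, and those with CD31- B220- cells.

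**Figure D1:**
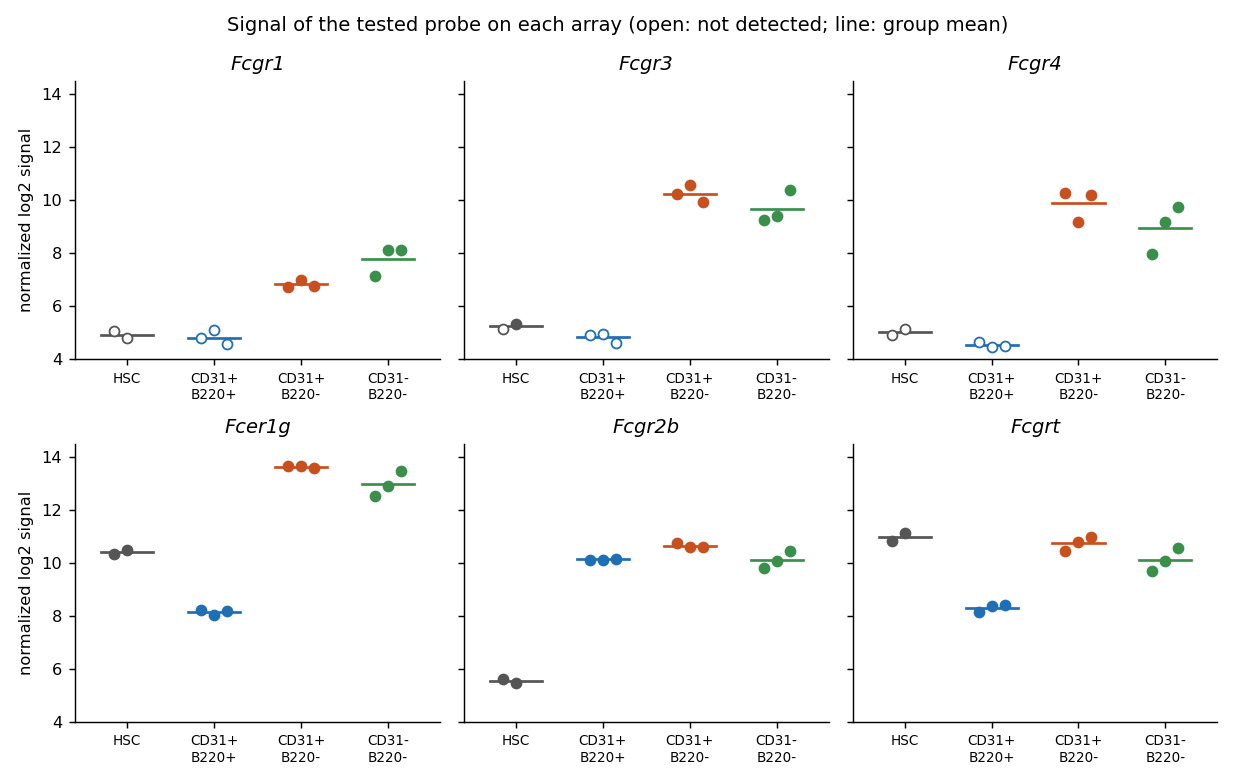
Normalized log2 signal (vertical axis) of the tested probe of each gene on every array, by group; filled points were detected, open points were not, and lines are group means. Fcgr1, Fcgr3 and Fcgr4 are detected on all 6 B220- arrays and on no CD31+ B220+ array, whereas Fcgr2b lies between 9.81 and 10.75 in all 3 fractions and at 5.47 and 5.60 in HSC.

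CD31+ B220+ cells differed from HSC in 3 of the 6 genes, and the inhibitory receptor moved against the chain. Fcgr2b was 24.3-fold higher, at 10.13 ± 0.03 (SD, n = 3) against 5.53 ± 0.09 (n = 2) (log2 difference 4.60, SE 0.20, adjusted p = 1.33e-08). Fcer1g was 4.82-fold lower (8.14 ± 0.10 against 10.41 ± 0.11, adjusted p = 1.59e-05) and Fcgrt 6.27-fold lower (8.31 ± 0.16 against 10.96 ± 0.21, adjusted p = 9.66e-06). Fcgr1, Fcgr3 and Fcgr4 were at background in CD31+ B220+ cells, and their adjusted p lay between 0.316 and 0.802. Adjusted p-values are from limma, with Benjamini-Hochberg adjustment over 11381 genes, and a gene was called under 0.05. In this comparison 44.2% of all tested genes were called, 18.6% higher and 25.6% lower, so the share of called members is near the background. Without background correction the log2 difference of Fcgr2b was 2.973, still called. By its log2 difference in the normalization used, Fcgr2b ranked 70th from the top among the 11381 genes.

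CD31+ B220- cells were higher than HSC for the 4 genes of the activating arm and for Fcgr2b. Fcgr2b was 34.5-fold higher (log2 difference 5.11, SE 0.20, adjusted p = 3.2e-08), and Fcgr3 32-fold (10.24 ± 0.32, n = 3, against 5.24 ± 0.13, n = 2; adjusted p = 5.48e-07). Where a gene was undetected throughout the dimmer group, its fold is a lower bound of the ratio of group means, against the dimmest detected signals. Such bounds leave out the spread between arrays. Fcgr4 was at least 24.4-fold higher (adjusted p = 8.61e-06) and Fcgr1 at least 2.93-fold (adjusted p = 0.000387). Their 95% intervals of the log2 difference began at 3.86 and 1.25, below the log2 bounds of 4.61 and 1.55. Fcer1g was 9.35-fold higher (13.63 ± 0.05 against 10.41 ± 0.11, adjusted p = 1.75e-06). Fcgrt gave a log2 difference of -0.22 (95% interval -0.80 to 0.36, adjusted p = 0.534). The sizes moved with the background correction: without it the log2 differences of Fcgr1, Fcgr3, Fcgr4 and Fcgr2b were 0.729, 3.163, 2.919 and 3.443, and with the deposited processed values 3.002, 6.013, 6.103 and 5.93, so the bounds hold for the normalization used here. All 4 genes stayed called under both. Among all genes 41.3% were called, 17.6% higher and 23.7% lower, against 5 of 6 members, all higher. The log2 differences of Fcgr2b, Fcgr3 and Fcgr4 ranked 35th, 42nd and 50th from the top.

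CD31- B220- cells also exceeded HSC in the same 5 genes. Fcgr2b was 23.9-fold higher (log2 difference 4.58, SE 0.20, adjusted p = 2.87e-08), Fcgr3 21.7-fold (adjusted p = 7.62e-07) and Fcer1g 5.92-fold (adjusted p = 5.79e-06). Fcgr4 was at least 12.9-fold higher and Fcgr1 at least 5.71-fold (adjusted p = 2.63e-05 and 1.17e-05). Without background correction the log2 differences of Fcgr1, Fcgr3, Fcgr4 and Fcgr2b were 1.307, 2.67, 2.153 and 2.955, each still called. Fcgrt was 1.80-fold lower (10.12 ± 0.44, n = 3, against 10.96 ± 0.21, n = 2; adjusted p = 0.0207). That call was lost without HSC replicate 2 (adjusted p = 0.144) and without CD31- B220- replicate 1 (0.0662), and its second probe was not called (adjusted p = 0.328). In this comparison 49.2% of genes were called, 20.9% higher and 28.3% lower, against 5 members higher and 1 lower.

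With HSC aside, the B220+ fraction was set against the other CD31+ fraction, from which the labels separate it by B220 alone. The activating arm was lower in CD31+ B220+ cells. Fcer1g was 45.1-fold lower (log2 difference -5.49, SE 0.22, adjusted p = 2.29e-08), Fcgr3 at least 26.4-fold (adjusted p = 1.09e-07), Fcgr4 at least 20.5-fold (1.54e-06) and Fcgr1 at least 2.46-fold (0.000127). Without background correction the log2 differences of Fcgr1, Fcgr3 and Fcgr4 were -0.793, -3.334 and -3.221, and with the deposited processed values -3.295, -7.012 and -7.495, all called. Fcgrt was 5.38-fold lower (adjusted p = 1.3e-05). Fcer1g ranked 26th from the bottom of the 11381 genes, Fcgr3 29th and Fcgr4 35th. All 6 members were called, all lower, where 35.3% of genes were called, 16.8% higher and 18.5% lower. This count is a description, because Fcgr1, Fcgr3 and Fcgr4 could pass the detection filter only with the B220- arrays. Fcgr2b was 1.42-fold lower at an adjusted p of 0.0463, a call that 9 of the 11 single-array omissions ended (highest adjusted p = 0.125).

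Against CD31- B220- cells, CD31+ B220+ cells were lower in 5 members and close in Fcgr2b. Fcer1g was 28.5-fold lower (log2 difference -4.84, SE 0.22, adjusted p = 1.28e-08), and Fcgrt 3.49-fold lower (adjusted p = 7.18e-05). The bounds were 17.9-fold for Fcgr3, 10.9-fold for Fcgr4 and 4.80-fold for Fcgr1, with adjusted p of 1e-07 to 3.38e-06. Without background correction the log2 differences of Fcgr3, Fcgr4 and Fcgr1 were -2.841, -2.455 and -1.371, all called. Fcgr2b gave a log2 difference of 0.02 with a 95% interval of -0.37 to 0.42, so differences of up to about 0.42 log2 units are not excluded. In this comparison 44.8% of genes were called, 22.4% higher and 22.5% lower.

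On the tested probes the 2 B220- fractions differed by less than 2-fold, and the direction was split. Fcgr1 was 1.95-fold lower in CD31+ B220- than in CD31- B220- cells (6.82 ± 0.15 against 7.78 ± 0.57, n = 3 each, adjusted p = 0.0179). Fcer1g was 1.58-fold higher (adjusted p = 0.0411) and Fcgr2b 1.45-fold higher (adjusted p = 0.0467). Fcgr3, Fcgr4 and Fcgrt had log2 differences of 0.56, 0.92 and 0.62 with adjusted p of 0.183, 0.118 and 0.0733. Of all genes 28.1% were called, 16% higher and 12.1% lower, against 3 of 6 members. The count of members ranged from 0 to 5 when single arrays were left out, and none of these calls held under all omissions.

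**Figure D2:**
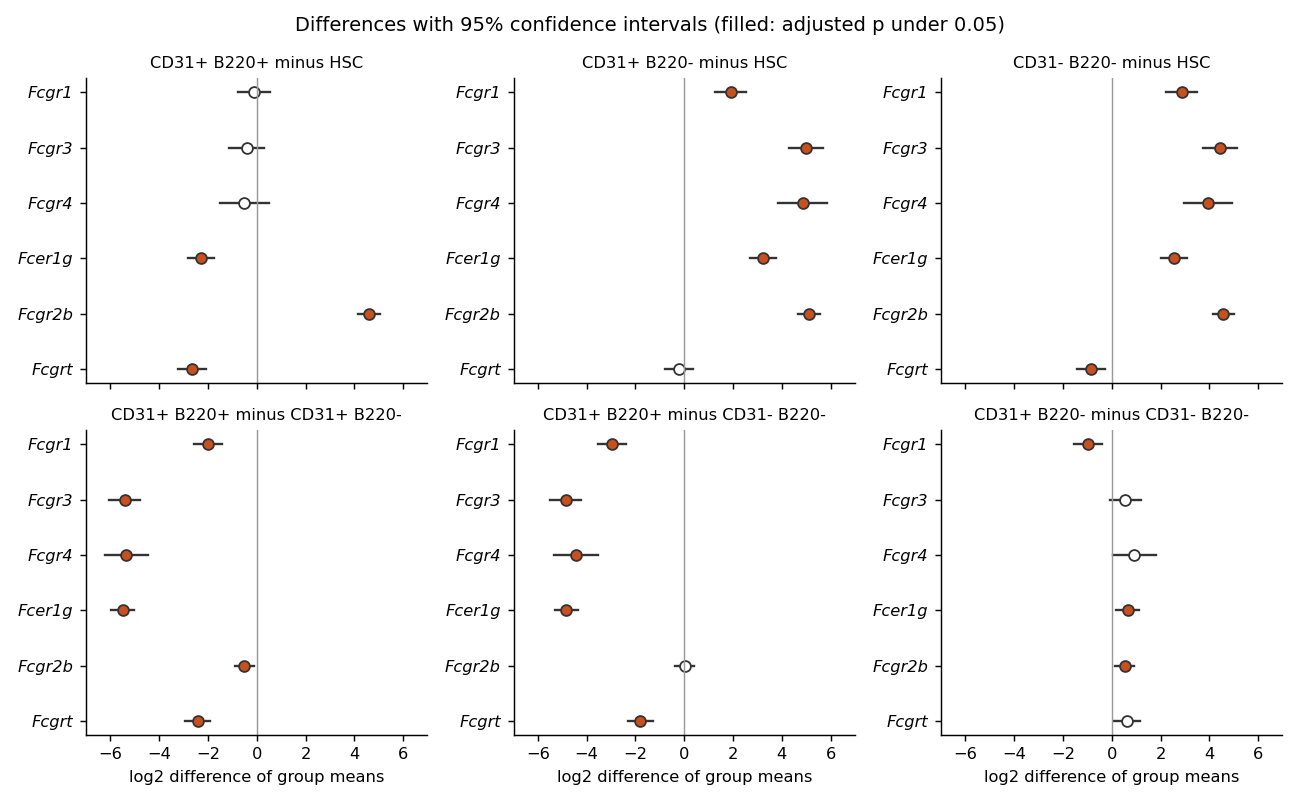
Log2 difference of group means (horizontal axis) with 95% confidence intervals for each gene in the 6 comparisons; filled points have an adjusted p under 0.05. Fcgr2b is far to the right of 0 in all 3 comparisons with HSC (4.60, 5.11 and 4.58), while Fcer1g lies to the left in CD31+ B220+ minus HSC (-2.27) and to the right in the other two.

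One array touched the last comparison. CD31- B220- replicate 3 was the highest of its group for 5 of the 6 genes, the exception being Fcgr1, and lay above the mean of the other two by 1.16 log2 units for Fcgr4 and 1.06 for Fcgr3. Its neutrophil markers summed to a linear signal of 59726, against 23652 and 28841 on the other arrays of the group. The macrophage and monocyte sum was also highest there (43930 against 33928 and 37458), as was that of the adaptor chains and Fcer1g partners (4703 against 2232 and 3187), while the erythroid sum was lowest (53980 against 66056 and 59220). Without this array 5 members and 3460 of 11381 genes were called between the B220- fractions, against 3 members and 3199 genes with all arrays. The part of these cell types in these values was not tested.

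The balance between the inhibitory receptor and the activating chain was measured as Fcgr2b minus Fcer1g on the same array. A shift common to all normalized log2 values of an array cancels in it. Effects of background correction and quantile normalization that depend on signal do not, so array brightness can still enter comparisons with HSC. The difference of 2 probes has no absolute meaning, and groups were compared. It was 1.92, 2.10 and 1.98 log2 units in CD31+ B220+ cells, -2.92, -3.05 and -2.99 in CD31+ B220- cells, and -2.72, -2.85 and -3.01 in CD31- B220- cells. HSC gave -4.73 and -5.01. CD31+ B220+ cells thus stood above every other array, by 4.98 log2 units over CD31+ B220-, 4.86 over CD31- B220- and 6.87 over HSC, and the HSC arrays were the lowest. The B220- fractions overlapped, with a difference of -0.13 (exact permutation p = 0.3, 2-sided). The other 5 differences, including 1.89 and 2.01 of the B220- fractions over HSC, had an exact permutation p of 0.1, the smallest these array numbers allow, and so cannot reach 0.05. These last 2 differences were 0.32 and 0.483 without background correction and 2.681 and 2.799 with the deposited processed values, while that of CD31+ B220+ over HSC stayed between 4.873 and 7.789 over 17 alternatives.

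**Figure D3:**
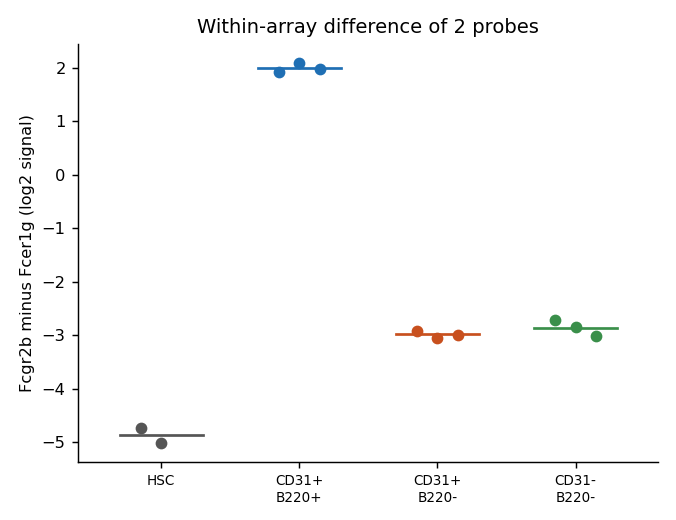
Fcgr2b minus Fcer1g in log2 signal (vertical axis) on each of the 11 arrays, by group, with lines at the group means. The CD31+ B220+ arrays lie at 1.92 to 2.10, the 6 B220- arrays between -3.05 and -2.72, and the HSC arrays at -4.73 and -5.01.

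Not all Fcgr2b probes carried the signal. ILMN_3102376 gave 7.89 ± 0.11 in CD31+ B220+, 8.20 ± 0.15 in CD31+ B220- and 8.13 ± 0.56 in CD31- B220- cells (SD, n = 3 each), and was detected on neither HSC array. Its bounds over HSC were 6.16-fold, 7.65-fold and 7.29-fold, with adjusted p of 4.42e-06 to 8.25e-06 in a fit of 22233 single probes. Like the brightest probe it was thus higher in all 3 fractions than in HSC, and it was not called between fractions (adjusted p from 0.413 to 0.893).

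ILMN_3029178 departed from both. It gave 7.53, 6.74 and 7.03 in CD31+ B220+ cells and 7.99, 7.34 and 6.53 in CD31+ B220- cells, but 5.07, 5.96 and 6.66 in CD31- B220- cells, where 2 of 3 arrays detected it. CD31- B220- cells were lower than CD31+ B220+ cells by 1.21 log2 units on this probe (adjusted p = 0.0411) and lower than CD31+ B220- cells by 1.39 (adjusted p = 0.0359). Against HSC, where it was undetected, it was higher in CD31+ B220+ and CD31+ B220- cells (adjusted p = 0.00308 and 0.00223) but not called in CD31- B220- cells (log2 difference 0.99, adjusted p = 0.113). ILMN_2447970 and ILMN_2577664 stayed at or below 6.16 on every array and were not called in any comparison. The transcript that each probe reads was not determined here. Fcgr2b, Fcgr3 and Fcgr4 have related sequences, and cross-hybridization was not tested.

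The second Fcgrt probe, ILMN_2917497, was detected on all 11 arrays and repeated the low point in CD31+ B220+ cells. Its group means were 9.34 in HSC, 7.02 in CD31+ B220+, 9.42 in CD31+ B220- and 8.96 in CD31- B220- cells. CD31+ B220+ cells were lower by 2.32 log2 units than HSC, 2.41 than CD31+ B220- and 1.95 than CD31- B220- cells (adjusted p = 6.86e-05, 3.47e-05 and 0.000101).

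**Figure D4:**
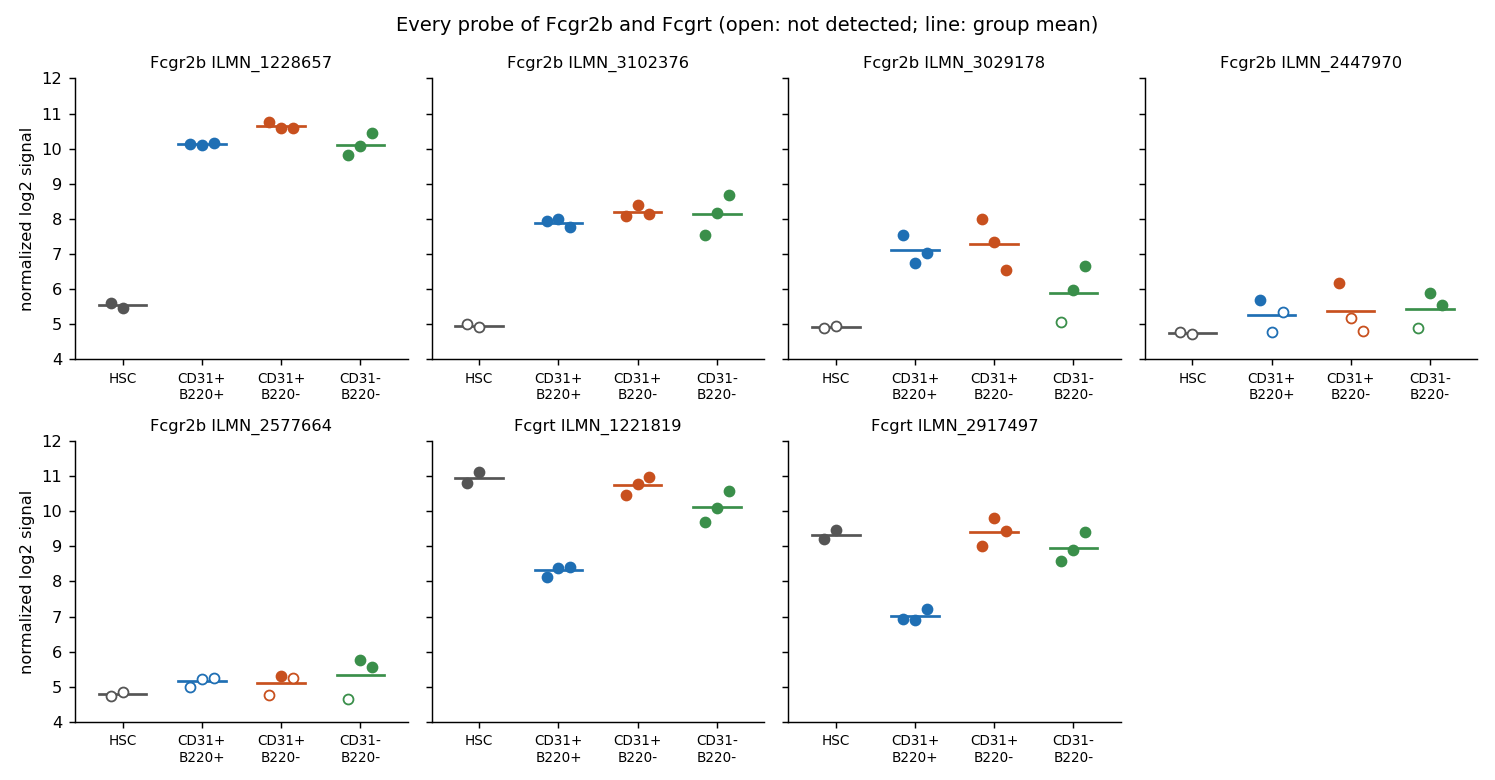
Normalized log2 signal of each of the 5 Fcgr2b and 2 Fcgrt probes on every array, by group; filled points were detected, open points were not, and lines are group means. Fcgr2b probes ILMN_1228657 and ILMN_3102376 are bright in all 3 fractions, ILMN_3029178 is dimmer in CD31- B220- cells, and the remaining Fcgr2b probes are near background.

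Syk and Btk, kinases downstream of these receptors, had another pattern than the activating receptors. Syk, the kinase recruited by Fcer1g, was highest in CD31+ B220+ cells (8.96 ± 0.35, n = 3), lower in CD31+ B220- cells (6.64 ± 0.63) and HSC (6.24 ± 0.09, n = 2), and detected on no CD31- B220- array. It was 5-fold higher in CD31+ B220+ than in CD31+ B220- cells (adjusted p = 7.48e-05) and at least 11.2-fold higher than in CD31- B220- cells (adjusted p = 3.88e-07). CD31+ B220+ cells, with the dimmest Fcer1g, thus had the brightest Syk. Btk, the kinase downstream of Syk, was 1.90-fold and 3.50-fold higher in CD31+ B220+ than in CD31+ B220- and CD31- B220- cells (adjusted p = 0.00143 and 4.96e-06). Fgr, a Src-family kinase of myeloid cells, was instead undetected in CD31+ B220+ cells and HSC and detected on all 6 B220- arrays.

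The phosphatases of inhibitory signalling were detected in every group. Inpp5d was at 9.71 ± 0.26 in CD31+ B220+, 9.36 ± 0.04 in CD31+ B220- and 8.42 ± 0.31 in CD31- B220- cells (n = 3 each) and 8.94 ± 0.29 (n = 2) in HSC. It was 2.45-fold higher in CD31+ B220+ than in CD31- B220- cells (adjusted p = 0.000344), while against CD31+ B220- cells its adjusted p was 0.222. Ptpn6 (SHP-1), which also binds inhibitory motifs, was 1.99-fold and 3.75-fold higher in CD31+ B220+ than in CD31+ B220- and CD31- B220- cells (adjusted p = 0.0042 and 2.18e-05). Ptpn11 (SHP-2), the third phosphatase listed, had its lowest mean in CD31+ B220+ cells (11.27 ± 0.08) and its highest in HSC (11.68 ± 0.18), and was not called in any comparison (adjusted p of 0.0737 or above); it was named after its values were seen. Lyn, a Src-family kinase of these receptors, had no probe with a single gene name used here.

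Of 24 Fc receptor signalling proteins 21 were tested. Against HSC, 9 were higher and 2 lower in CD31+ B220+ cells (median log2 difference 0.58), 8 higher and 0 lower in CD31+ B220- cells (0.42), and 3 higher and 7 lower in CD31- B220- cells (-0.11). CD31+ B220+ cells had 6 higher and 4 lower than CD31+ B220- cells (-0.01) and 12 higher and 3 lower than CD31- B220- cells (0.98), and CD31+ B220- cells 13 higher and 1 lower than CD31- B220- cells (0.94). The median over all genes stayed between -0.06 and 0.07 in the 6 comparisons. Called were thus 11, 8 and 10 of 21 against HSC, where 44.2%, 41.3% and 49.2% of all genes were, which is near the background. Between fractions 10, 15 and 14 of 21 were called, where 35.3%, 44.8% and 28.1% of all genes were. The largest differences in the list were those of Rasgrp1 and Blnk, which act in antigen receptor signalling of lymphocytes. Both were undetected in HSC and CD31- B220- cells. In CD31+ B220+ cells Rasgrp1 was at least 95.7-fold and Blnk at least 36.1-fold above HSC (adjusted p = 1.07e-08 and 9.32e-09).

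Tyrobp and Clec4d, of the list of adaptor chains and Fcer1g partners, were higher in both B220- fractions than in CD31+ B220+ cells. Tyrobp (DAP12), an adaptor of the same type as Fcer1g, was at 11.28 ± 0.57 in CD31+ B220- and 11.12 ± 0.58 in CD31- B220- cells, against 7.88 ± 0.35 in CD31+ B220+ cells (n = 3 each) and 6.69 ± 0.08 (n = 2) in HSC. It was 10.6-fold lower in CD31+ B220+ than in CD31+ B220- cells (adjusted p = 1.34e-05), but 2.28-fold higher than in HSC (adjusted p = 0.0226). Against HSC, Fcer1g went the other way, with a mean of 10.41 in HSC and 8.14 in the CD31+ B220+ fraction. Clec4d, a C-type lectin that signals through Fcer1g, was detected on all arrays except those of CD31+ B220+ cells. It was at least 2.79-fold lower there than in CD31+ B220- cells (adjusted p = 6.35e-05). Cd247, another adaptor chain, was not called in any comparison, a gene named after its values were seen. Of 11 genes in this list 7 were tested. In CD31+ B220+ cells 0 were higher and 6 lower than in CD31+ B220- cells (median -1.56), 0 higher and 4 lower than in CD31- B220- cells (-1.46), and 1 higher and 3 lower than in HSC (0.28). Above HSC were 5 in CD31+ B220- cells (1.66) and 4 in CD31- B220- cells (0.87), with 0 below in both. Between the B220- fractions 2 were higher and 0 lower in CD31+ B220- cells (0.16), where 28.1% of all genes were called. The share of all genes called was 35.3%, 44.8% and 44.2% in the first 3 of these comparisons and 41.3% and 49.2% in CD31+ B220- and CD31- B220- cells against HSC.

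Most tested Fc receptors for other immunoglobulins or of the Fc receptor-like family were highest in CD31+ B220+ cells. Fcmr, the IgM receptor, was at 13.96 ± 0.17 in CD31+ B220+, 10.96 ± 0.56 in CD31+ B220- and 7.18 ± 0.54 in CD31- B220- cells (n = 3 each), and undetected in HSC. It was 8-fold higher in CD31+ B220+ than in CD31+ B220- cells and 109-fold higher than in CD31- B220- cells (adjusted p = 1.73e-05 and 1.33e-08). Fcrla, an intracellular Fc receptor-like protein of B cells, was 7.38-fold and 65.3-fold higher in the same comparisons (adjusted p = 1.79e-05 and 2.55e-08). Of 11 such genes 6 were tested. In CD31+ B220+ cells 5 were higher and 1 lower than in CD31+ B220- cells (median 2.94), 5 higher and 0 lower than in CD31- B220- cells (4.01), and 4 higher and 0 lower than in HSC (4.37). CD31+ B220- cells had 3 higher and 0 lower both against HSC (0.86) and against CD31- B220- cells (1.17), and CD31- B220- cells 2 higher and 1 lower against HSC (0.36). Of all genes 16.8%, 22.4% and 18.6% were higher in the first 3 comparisons, 17.6% and 16% in the next 2 and 20.9% in the last.

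The partner of Fcgrt did not share its low point. B2m lay between group means of 13.68 and 14.14, and its adjusted p was 0.0973 or above in every comparison. Among the endosomal sorting genes listed with it, Rab11fip5, a Rab11 effector, was 8.89-fold lower in CD31+ B220+ than in CD31+ B220- cells and 23.4-fold lower than in HSC (adjusted p = 1.88e-06 and 1.61e-07), with 1 of 3 CD31+ B220+ arrays detecting it. Rab4a, a GTPase of fast recycling, was undetected in CD31+ B220+ cells and at least 5.36-fold below its level in HSC (adjusted p = 1e-05). Of 8 genes in the list 7 were tested. In CD31+ B220+ cells 0 were higher and 3 lower than in HSC (median -0.10), 1 higher and 2 lower than in CD31+ B220- cells (-0.22), and 1 higher and 4 lower than in CD31- B220- cells (-0.55). CD31+ B220- cells had 0 higher and 3 lower than HSC (-0.71) and 0 higher and 1 lower than CD31- B220- cells (-0.32), which had 2 higher and 2 lower than HSC (-0.46). Of all genes 44.2%, 35.3% and 44.8% were called in the first 3 comparisons, 41.3% and 28.1% in the next 2 and 49.2% in the last.

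The scavenger endothelial label was set against marker genes. Lyve1 was detected on no array, and Stab2, a scavenger receptor of sinusoidal endothelium, on all 3 CD31+ B220- arrays (6.31 ± 0.38) and both HSC arrays but on none of the other fractions. Cdh5, the endothelial cadherin, was detected on 3 CD31+ B220- arrays (5.98 ± 0.20), 1 CD31+ B220+ array and no CD31- B220- array, and Kdr on 1 array of each fraction. The 12 pan-endothelial markers summed to a linear signal of 1331 to 1471 in CD31+ B220+, 2001 to 2471 in CD31+ B220-, 1143 to 1585 in CD31- B220- cells and 15756 to 17028 in HSC. By detection the CD31+ B220- fraction stood apart from the other fractions. Each of its arrays detected 9 to 10 of the 12, as against 3 to 4 for CD31+ B220+ and 3 to 5 for CD31- B220-. Both HSC arrays detected 9. CD31+ B220- cells had 6 of the 12 higher and 2 lower than the CD31- B220- fraction, but 2 higher and 8 lower than HSC. Of all genes 16% were higher and 12.1% lower in the first of these comparisons, and 17.6% and 23.7% against HSC. Lyve1, Stab2, Cdh5 and Kdr were thus undetected or dim in the fractions. Other listed genes were not, and these were named after their values were seen. Stab1, a scavenger receptor shared with macrophages, was at 9.17 ± 0.53 in CD31+ B220+, 10.65 ± 0.30 in CD31+ B220- and 10.61 ± 0.02 in CD31- B220- cells (n = 3 each), against 9.71 ± 0.18 (n = 2) in HSC. Egfl7 was at 7.41, 9.86 and 8.76 in the fractions in that order and at 11.91 in HSC. Esam, Robo4 and Emcn were detected on all 3 CD31+ B220- arrays, with means of 7.97, 7.12 and 6.21, and on no CD31- B220- array. Among CD31+ B220+ arrays, 2 detected Robo4 and none detected Esam or Emcn. HSC were brighter for these genes, at 12.5, 11.3 and 10.3. Eng and Flt1 were undetected in CD31+ B220+ cells but detected on all 6 B220- arrays, Eng at 7.63 and 8.43 and Flt1 at 6.81 and 8.12 in CD31+ B220- and CD31- B220- cells. Mrc1, also a macrophage receptor, was at 5.63, 7.98 and 6.71 in the fractions. Pecam1, which encodes the sorted CD31, followed the sort at 9.80, 8.26 and 5.21. It is 1 of the 12 pan-endothelial markers, so its part in their sums and counts is not independent of the sort.

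Summed markers of macrophages and neutrophils were higher in both B220- fractions, where the activating receptors were also high, but single genes departed from this. The 13 tested macrophage and monocyte genes of 16 listed summed to 42138 to 47648 in CD31+ B220- cells and 33928 to 43930 in CD31- B220- cells, against 1049 to 1605 in CD31+ B220+ cells and 2456 to 3076 in HSC. All 13 were lower in CD31+ B220+ than in CD31+ B220- cells, and 9 lower than in CD31- B220- cells, where 18.5% and 22.5% of all genes were lower. Against HSC, 11 were higher and 0 lower in CD31+ B220- cells, and 9 higher and 1 lower in CD31- B220- cells. Of all genes 17.6% and 20.9% were higher in these comparisons. Spic, named after its values were seen, was at 6.56 ± 0.23 in HSC (n = 2) and undetected in CD31- B220- cells. Csf1r, the macrophage growth factor receptor, was at 10.09 ± 0.06 and 10.06 ± 0.34 in the CD31+ B220- and CD31- B220- fractions (n = 3 each), and Adgre1, a macrophage surface receptor, at 9.49 ± 0.10 and 9.37 ± 0.17. In CD31+ B220+ cells Adgre1 and C1qa were undetected, and Csf1r was detected on 2 of 3 arrays (5.55 ± 0.48). C1qa, a complement gene of tissue macrophages, was detected on 2 CD31+ B220- arrays and 1 CD31- B220- array. Other genes of the list, named after their values were seen, were present in CD31+ B220+ cells: Mpeg1 (8.39 ± 0.36), F13a1 (7.59 ± 0.16) and Lyz2 (8.87 ± 0.87) were detected on all 3 arrays there, far below their means of 12.08, 13.76 and 14.48 in CD31+ B220- cells. C1qb and C1qc were brighter than C1qa, at 9 and 8.66 in CD31+ B220- and 7.31 and 6.09 in CD31- B220- cells, and were each detected on 2 CD31+ B220+ arrays.

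The 12 tested neutrophil genes of 14 listed summed to 65583 to 74055 in CD31+ B220- cells, 23652 to 59726 in CD31- B220- cells, 1694 to 7423 in CD31+ B220+ cells and 7894 to 8211 in HSC. The 7423 was CD31+ B220+ replicate 2, against 1697 and 1694 on the other arrays of that group. No array of that group detected Fcgr1, Fcgr3 or Fcgr4. Against HSC, 9 genes were higher and 0 lower in CD31+ B220- cells, and 6 higher and 0 lower in CD31- B220- cells. Of all genes 17.6% and 20.9% were higher in these comparisons. Prtn3 and Mpo, named after their values were seen, were at 11.446 and 11.707 in HSC, against 10.095 and 11.995 in CD31- B220- cells. Elane, a granule protease of early myeloid cells, was at 13.70 ± 0.07 in CD31+ B220- and 10.70 ± 1.13 in CD31- B220- cells. Ltf, a later granule protein, was at 8.18 ± 0.53 and 11.40 ± 1.16. Mast cell and basophil genes (7 tested of 10) summed to 5907 to 8114 in CD31+ B220- cells and 6854 to 7005 in HSC, but to 428 to 853 in CD31- B220- and 275 to 428 in CD31+ B220+ cells. Fcer1a, the IgE receptor chain that pairs with Fcer1g, was detected on all 3 CD31+ B220- arrays (7.21 ± 0.43), on 1 HSC and 1 CD31+ B220+ array, and on no CD31- B220- array. Cpa3, a mast cell protease, was likewise at 9.92 ± 0.25 in CD31+ B220- cells and undetected in the other two fractions.

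Markers of B cells and red cell precursors differed between the fractions as well. B lineage genes (10 tested of 12) summed to 52433 to 52973 in CD31+ B220+, 10611 to 17530 in CD31+ B220-, 653 to 1076 in CD31- B220- cells and 1111 to 1181 in HSC. Of the 10, 8 were higher and 0 lower in CD31+ B220+ than in CD31+ B220- cells, where 16.8% and 18.5% of all genes were. Vpreb1 and Igll1, named after their values were seen, had their highest means in CD31+ B220- cells. These were 11.01 ± 0.22 and 11.99 ± 0.53, against 10.83 ± 0.60 and 11.44 ± 0.32 in CD31+ B220+ cells (n = 3 each). Cd79a had no probe with a single gene name used here. Erythroid genes (8 tested of 9) summed to 53980 to 66056 in CD31- B220- cells and to 2633 to 3905 in the remaining groups, with Klf1 at 12.23 ± 0.20 in CD31- B220- cells. Stem cell genes (7 tested of 9) summed to 19169 to 19673 in HSC and 460 to 2296 in the fractions. The list holds Kit and Slamf1, which encode the K of LSK and CD150, so its level in HSC is not independent of the sort. Kit was at 13.24 ± 0.14 and Mecom at 8.11 ± 0.64 in HSC (n = 2). The part of any of these cell types in the Fc receptor values was not tested.

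**Figure D5:**
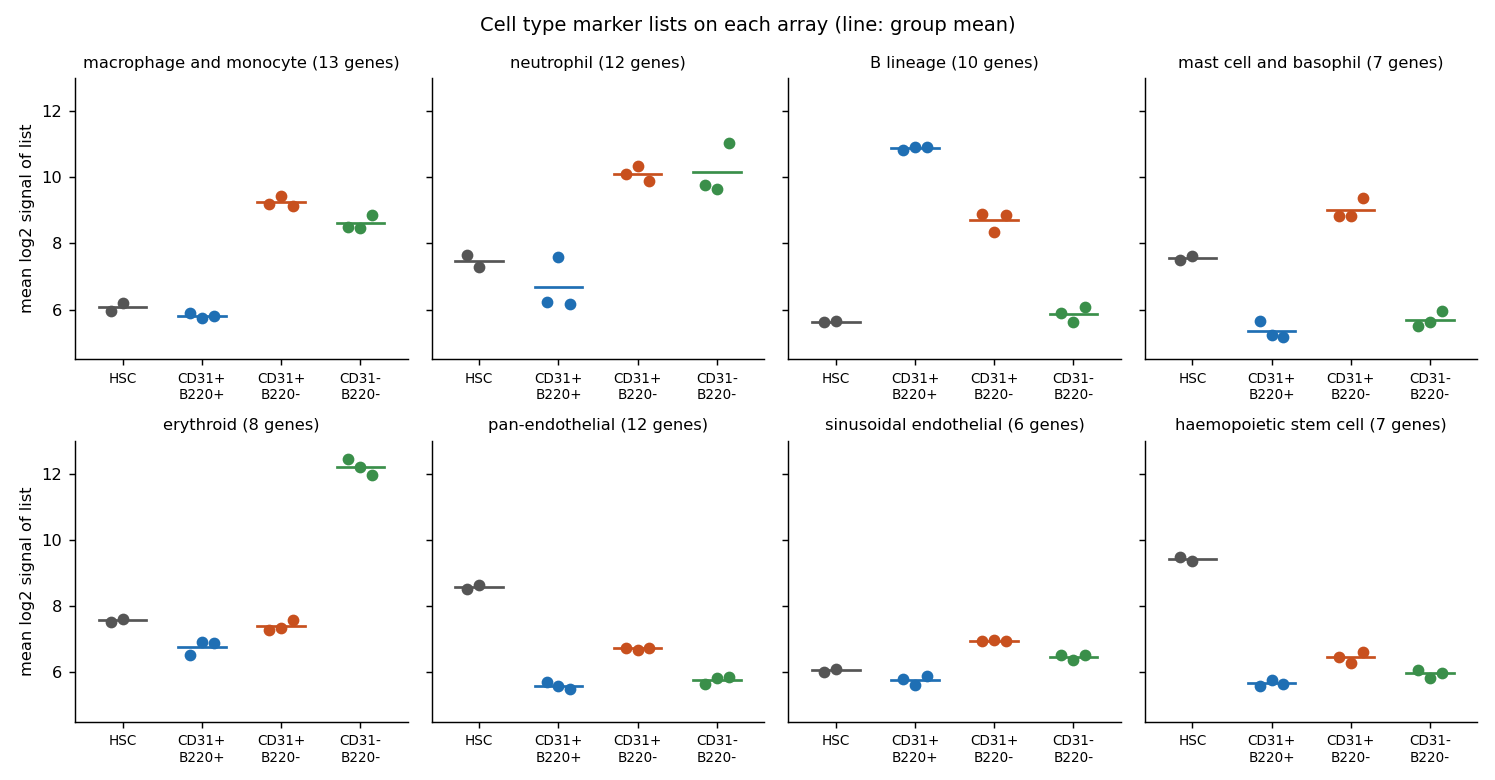
Mean normalized log2 signal of the tested genes of 8 marker lists (vertical axis) on each array, by group, with lines at the group means. The macrophage and neutrophil lists are high in both B220- fractions, where Fcgr1, Fcgr3, Fcgr4 and Fcer1g are high, the B lineage list is highest in CD31+ B220+ cells, and the pan-endothelial list is highest in HSC.

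For each member, the 3 genes with the most similar signal over the 11 arrays were listed by Pearson r. The arrays form 4 groups, so these values mostly reflect group means and are given as descriptions. Fcgr3 was closest to Sema4a (0.997), Fn1 (0.996) and Lgals3 (0.996), and Fcgr4 to Celsr3 (0.989), Lamp1 (0.989) and Aoah (0.987). Fcer1g was closest to Anxa2 (0.996), Mtus1 (0.994) and Xdh (0.994), which were high in the B220- fractions and lowest in CD31+ B220+ cells. Fcgr1 was closest to Cryba4 (0.986), Fgr (0.985) and Gpx3 (0.983), all of which had their highest means in CD31- B220- cells. Fgr gave 7.17 ± 0.31 there, 6.54 ± 0.12 in CD31+ B220- cells, and was undetected in the other groups.

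Fcgr2b was closest to Pld4 (0.993), Gpr183 (0.993) and Jaml (0.991). Like Fcgr2b, these were bright in all 3 fractions: Pld4 was at 11.29 ± 0.36, 11.87 ± 0.09 and 11.56 ± 0.66 in CD31+ B220+, CD31+ B220- and CD31- B220- cells (n = 3 each), against 5.75 ± 0.20 (n = 2) in HSC. Fcgrt was closest to Snx10 (0.99), Septin9 (0.988) and Zyx (0.985). Snx10, a sorting nexin of endosomes, was at 11.34 ± 0.15 in HSC (n = 2) and 8.87 ± 0.06, 11.21 ± 0.06 and 10.51 ± 0.36 in CD31+ B220+, CD31+ B220- and CD31- B220- cells (n = 3 each).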

How the data were processed

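Per the file headers, the authors deposited for each of 11 Illumina bead arrays a mean intensity per probe, not normalized and on a linear scale, and beside it a fraction headed as a detection p-value. The deposited fraction rose with signal and was read as 1 minus p. The authors' deposited processed values (log2-like, 1.57 to 14.9, log base not given in the sources used here) served as an alternative. lumi 1.1.0 stands among the tools in the submitters' processing notes.

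Signals were background-corrected and quantile-normalized with neqc (limma 3.58.1, R 4.3.3, the data.table package, version 1.17.8; offset 16, log2). Of 45281 probes 34885 carried 1 symbol, 18 several and 10378 none in the platform annotation. The brightest probe of each symbol, detected at p under 0.05 on at least 2 arrays, gave 11381 genes. All 11 arrays entered 1 linear model with a mean per group, and 6 contrasts were tested with eBayes. The fit was tested on simulated data. The number of arrays limits the precision.

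Named genes are the 6 members, the 3 genes most like each, fixed signalling genes and the 2 largest differences of each of 4 pathway lists; with the marker lists there were 14. Members and lists were chosen with earlier results of these data known. Deviations of same-numbered arrays from their group means had a median r of -0.008 over 15 pairs (-0.07 to 0.179). The 30 other pairs had a median of 0.002 (-0.15 to 0.151). Such deviations cancel within a group of so few arrays, so this check cannot exclude pairing. No block was used, and the replicate number as a block was run as an alternative.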

Additional observations from a re-analysis of the deposited data

How the results depend on the processing

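Across 22 alternatives to each of the 36 member differences, 728 values kept their direction and side of the threshold, 50 lost their call, 10 gained one and 4 changed sign. The sign changes were those of differences near 0: Fcgr1 in CD31+ B220+ minus HSC (0.027 without HSC replicate 1, 0.025 without CD31+ B220+ replicate 3, range over omissions -0.245 to 0.027) and Fcgr2b in CD31+ B220+ minus CD31- B220- (-0.214 under median scaling, -0.128 without CD31- B220- replicate 1, range over omissions -0.128 to 0.19). The members called between the B220- fractions, 3 in the report, were 5 without background correction, 1 under median scaling, 0 with the deposited values, 1 with every probe tested singly, 1 with only the groups compared, and 0 to 5 when single arrays were left out; the cause was not tested. Fcgr2b between the CD31+ fractions lost its call in 12 of the 22 alternatives.

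Under median scaling the all-gene median in CD31+ B220+, CD31+ B220- and CD31- B220- minus HSC was -1.206, -1.123 and -1.056, and 8446, 8298 and 8114 genes were called, with 9.24%, 10.8% and 13.4% of them higher, against 42.1%, 42.7% and 42.4% in the report. In CD31+ B220+ minus CD31+ B220- and minus CD31- B220- and in CD31+ B220- minus CD31- B220- the share was 36.3%, 40.5% and 53.9%, against 47.5%, 49.9% and 56.8%. Relative to the shifted median, Fcgr2b stayed at 4.72, 5.33 and 4.78 over HSC. Fcgrt in CD31+ B220- minus HSC became called (-1.279, or -0.16 relative to the median). Testing probes singly called 8978, 7893, 9533, 6515 and 8412 probes in place of 5029, 4704, 5595, 4015 and 5102 genes, because 22233 probes were tested. Without HSC replicate 1, 3104 genes were called in CD31+ B220- minus HSC, and single-array omissions gave 3104 to 4867. The replicate number as a replicate block left 3, 5, 6, 5, 5 and 2 members called in the 6 comparisons. It ended the calls of Fcgr2b between the CD31+ fractions (adjusted p = 0.0655) and of Fcer1g (0.0512) and Fcgr2b (0.0671) between the B220- fractions, and added Fcgrt there (0.0249). Quantile normalization after the log was added after seeing the data. The slide as a block was not run, because the files used here name no slide. Signal near background limits Fcgr1 and Fcgr4 in HSC and CD31+ B220+ cells, and Fcgr3 in CD31+ B220+ cells, to bounds.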

Other observations

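Some further cell type lists bore on where Fc receptors are made. The 7 tested dendritic cell genes of 10 listed summed to a linear signal of 2208 to 2598 in CD31+ B220+ cells, 1788 to 2701 in CD31+ B220- cells, 962 to 1465 in CD31- B220- cells and 301 to 333 in HSC. The order of the mean log2 signal was another: 6.29 to 6.44 in CD31+ B220+, 6.93 to 7.26 in CD31+ B220-, 6.63 to 7.03 in CD31- B220- cells and 5.17 to 5.28 in HSC. In CD31+ B220+ cells 2 to 3 of the 7 genes were detected per array, against 6 on every B220- array, and Irf8, also a B cell factor and named after its values were seen, was at 10.77 ± 0.21 there (n = 3). Against HSC, 3, 5 and 6 of the 7 were higher in the 3 fractions in that order, and 0 lower. Of all genes 18.6%, 17.6% and 20.9% were higher in these comparisons. NK cell genes, of which 4 of 10 were tested, had their highest sums in CD31+ B220- cells (3078 to 4545) and lay between 980 and 2151 elsewhere. The genes were split, and the next 3 were named after their values were seen. Klrd1 and Nkg7 had their highest means in CD31+ B220- cells, at 8.86 and 11.15. Prf1 was highest in CD31+ B220+ cells (10.78) and at 9.83 in CD31+ B220- cells. Ncr1, the defining receptor of NK cells, was detected on no array, and Klrb1c only on the 2 HSC arrays (5.77 ± 0.20). Sinusoidal endothelial genes (6 tested of 12) summed to 1886 to 2461 in CD31+ B220-, 1817 to 1875 in CD31- B220-, 548 to 987 in CD31+ B220+ cells and 972 to 1122 in HSC. Stab1, shared with macrophages, was the brightest of them in every group. In CD31+ B220- cells 5 to 6 of the 6 were detected per array, against 3 to 4 in CD31- B220- cells. The mean log2 signal was 6.95 to 6.975 and 6.383 to 6.515 in these 2 fractions. The part of these cell types in the Fc receptor values was not tested.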
